A study of Mus musculus with 24 samples.

Results

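The MAPK feedback inhibitors described here are 10 genes chosen by symbol from a table of 55385 genes: the dual specificity phosphatases Dusp1, Dusp2, Dusp4 and Dusp6, the Sprouty genes Spry1, Spry2 and Spry4, the Sprouty-related genes Spred1 and Spred2, and the ETS factor Etv5. Their RNA was measured by RNA-seq in P815, a mouse mastocytoma line, that is, a tumour line of mast cell origin, which is known to carry an activated Kit receptor. The 24 libraries form 8 groups of 3. SH cells were transfected with a vector for an Esr1-specific short hairpin RNA, and SH_E2 cells had the same vector and β-estradiol for 24 h. ICI and ICI_E2 cells received the antiestrogen ICI-182780 (fulvestrant) for 24 h, the second group together with β-estradiol. Tamo and Tamo_E2 cells received tamoxifen for 24 h, likewise without and with β-estradiol. NC cells carried a negative control vector, and NC_E2 cells the same vector with β-estradiol for 24 h. For SH and NC without β-estradiol the labels state no time, and they give no dose for any agent. The labels name no vehicle-only or untransfected group, and they do not say that the antiestrogen cells carried a vector, so drug and vector cannot be told apart in a comparison of those cells with NC. Nor do they say whether replicates are separate cultures, so p-values measure only the spread between these libraries, which may be technical. The medium of all groups was RPMI-1640 with 10% serum.

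Growth factor receptors such as Kit activate Ras, which starts a relay of the kinases Raf, MEK and ERK. Active ERK switches on transcription, and among the genes it induces are inhibitors of the same relay. Dual specificity phosphatases remove the activating phosphates from ERK or from its relatives JNK and p38, Sprouty proteins act on the steps from the receptor to Raf, and Spred proteins bring the Ras inactivator neurofibromin to the membrane. Etv5 is a transcription factor that is commonly induced by the same relay, and is counted here with its outputs. In mast cells this pathway carries signals for survival and growth from Kit.

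Libraries held 42.1 to 68.8 M estimated counts. Of the 10 genes, 8 reached 1 FPKM (fragments counted per transcript length and library size, as deposited) in at least 3 libraries and entered the tests with 12175 other genes. Dusp4 and Spry2 did not. Of 8 mast cell markers 8 reached 1 FPKM in some library. Their summed level was 994 to 1220 FPKM in the SH arm (SH and SH_E2) and 782 to 1030 FPKM in the NC arm (NC and NC_E2). Of 6 macrophage markers 2 reached 1 FPKM in some library. The macrophage markers had a summed level of 19.4 to 23.7 FPKM in the SH arm and 19.2 to 22.1 FPKM in the NC arm. Most of that sum was Cd68, at 16.3 to 25.2 FPKM over all libraries. No lymphocyte marker of 6 and 1 fibroblast marker of 5 reached 1 FPKM in some library. Of the mast cell markers, Cpa3 was higher in the SH arm than in the NC arm (log2 fold change 1.18 ± 0.19) and Srgn (-0.72 ± 0.12) and Tpsb2 (-3.37 ± 0.50) were lower. The part of these differences in the other results was not tested. Tpsb2 was low throughout, with means of 0.0803 FPKM in SH and 0.882 FPKM in NC and a maximum of 1.48 FPKM. Libraries of the same replicate number resembled each other across groups, and values without those numbered 1 are given after the group comparisons. Esr1, the target of the hairpin, averaged 0.246 FPKM in the SH arm and 0.328 FPKM in the NC arm, and its log2 fold change of -0.48 ± 0.25 (SE) over both β-estradiol conditions did not pass in edgeR's quasi-likelihood test on all genes with a count (adjusted p = 0.319).

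The hairpin libraries held less RNA of 5 of the 8 tested feedback inhibitors than the control vector libraries. Over both β-estradiol conditions, the nuclear phosphatase gene Dusp1 was 3.98-fold lower, Spry4 was 3.20-fold lower, the ERK phosphatase gene Dusp6 was 2.12-fold lower, Dusp2 was 1.48-fold lower and Spred1 was 1.45-fold lower. None of the 8 was higher, and Spry1, Spred2 and Etv5 did not pass. Among all 12183 genes tested, 10% were called lower and 10.6% higher in this comparison, and the median log2 fold change was -0.55 for the 8 genes against 0.00 for all genes tested. The genes were chosen with earlier results of these data known, so this contrast with all genes may partly reflect the choice. A lower level in a bulk library cannot tell fewer cells with the transcript from less of it per cell.

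**Figure D1:**
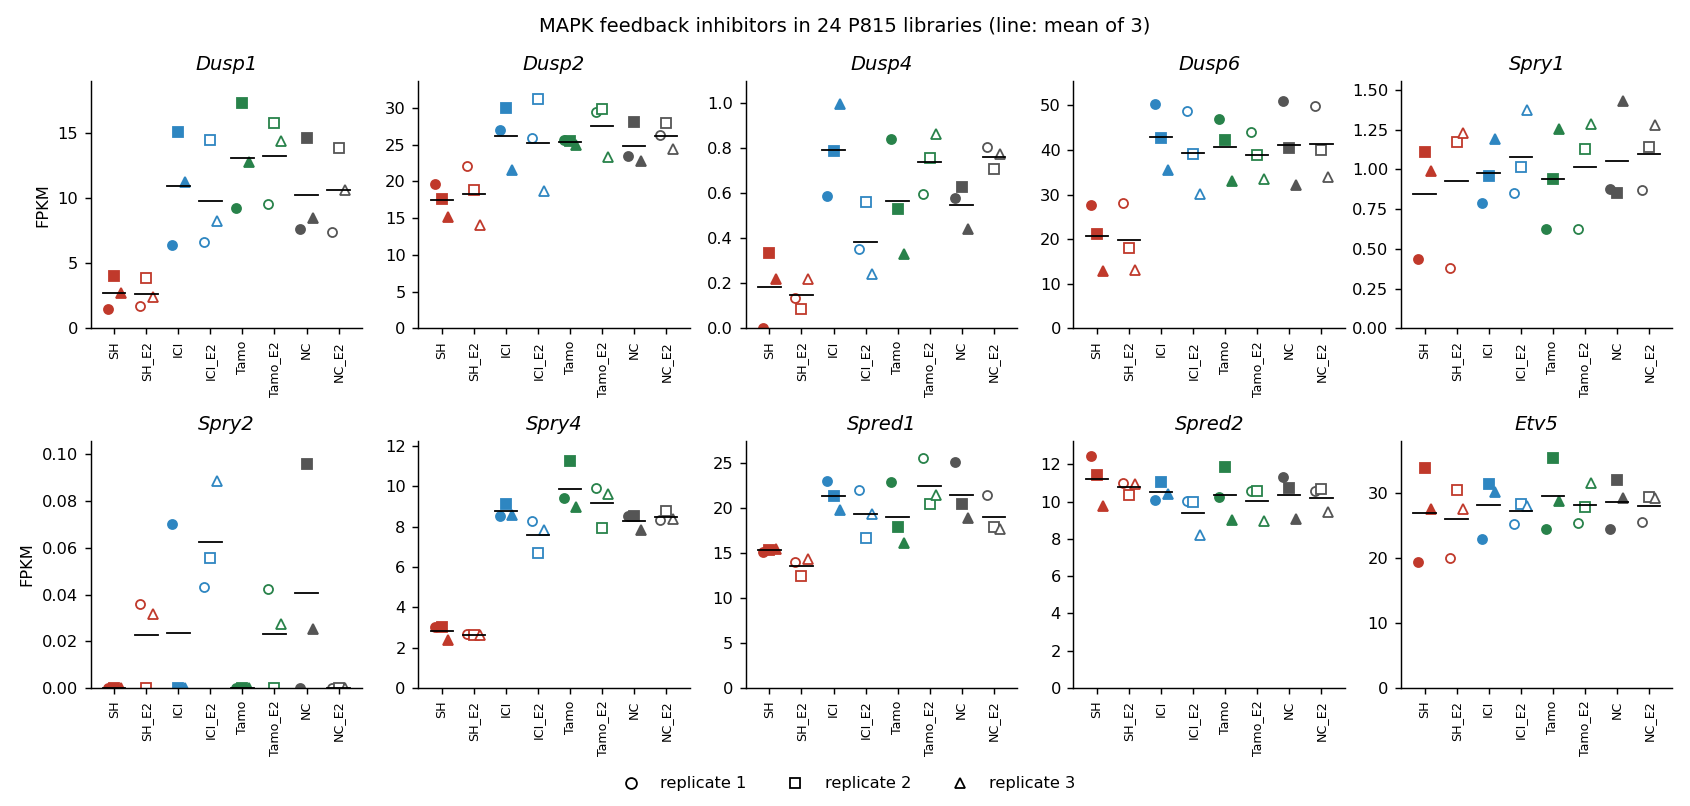
FPKM of the 10 genes in each of the 24 libraries, by group on the x axis, with the symbol giving the replicate number, open symbols the groups with β-estradiol, and a line the mean of 3; libraries with a count of 0 are drawn at 0. The SH and SH_E2 libraries lie below those of the other groups for Dusp1, Dusp6, Spry4 and Spred1. For Spry1, Spred2 and Etv5 their range overlaps that of the other groups, with the hairpin libraries numbered 1 lowest for Spry1 and Etv5.

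Spry4, the Sprouty gene with the highest level per length in these cells, separated the arms most cleanly. It stood at 3.05, 3.01 and 2.37 FPKM in SH and at 2.67, 2.65 and 2.61 FPKM in SH_E2 (replicates 1, 2 and 3), against 8.52, 8.52 and 7.81 FPKM in NC and 8.32, 8.76 and 8.40 FPKM in NC_E2. The antiestrogen libraries held 8.54, 9.14 and 8.58 FPKM in ICI, 8.29, 6.70 and 7.83 FPKM in ICI_E2, 9.41, 11.2 and 8.96 FPKM in Tamo, and 9.93, 7.94 and 9.61 FPKM in Tamo_E2. Each of the 6 hairpin libraries was thus below each of the 18 others, with a gap between 3.05 and 6.70 FPKM. The log2 fold change was -1.62 ± 0.12 for SH against NC (edgeR adjusted p = 4.18e-08) and -1.74 ± 0.12 for SH_E2 against NC_E2 (adjusted p = 1.09e-08). Over both conditions it was -1.68 ± 0.08, with a 95% interval from -1.85 to -1.51 (adjusted p = 3.69e-11). The gene lies on the minus strand of chromosome 18 at 38586247 to 38601415 (GRCm38).

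Dusp1 encodes a nuclear phosphatase for p38, JNK and ERK and is a classical early response gene. It stood at 1.48, 4.06 and 2.69 FPKM in SH and at 1.74, 3.87 and 2.38 FPKM in SH_E2, against 7.62, 14.6 and 8.46 FPKM in NC and 7.40, 13.9 and 10.6 FPKM in NC_E2. The antiestrogen libraries held 6.41, 15.1 and 11.3 FPKM in ICI, 6.67, 14.4 and 8.28 FPKM in ICI_E2, 9.27, 17.3 and 12.8 FPKM in Tamo, and 9.52, 15.8 and 14.4 FPKM in Tamo_E2. The 6 hairpin libraries again lay below the 18 others, although within every group the libraries differed by more than they did for Spry4. For SH against NC its log2 fold change was -1.95 ± 0.43 (edgeR adjusted p = 0.00573), -2.04 ± 0.43 for SH_E2 against NC_E2 (adjusted p = 0.00412) and -1.99 ± 0.31 over both (adjusted p = 7.98e-05). Dusp1 is annotated on the minus strand of chromosome 17 at 26505590 to 26562128, a span that overlaps Ergic1 on the plus strand by 640 bases. The sources do not state whether reads were counted by strand, so the reads of that stretch cannot be told apart. Ergic1, a gene of the secretory pathway, had a log2 fold change of 0.03 ± 0.07 over both conditions (edgeR adjusted p = 0.799).

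Dusp6 encodes a cytoplasmic phosphatase that acts chiefly on ERK, and it had the highest level per length of the 10 genes in most libraries. It stood at 27.7, 21.2 and 12.9 FPKM in SH and at 28.2, 18 and 13.1 FPKM in SH_E2, against 50.9, 40.5 and 32.2 FPKM in NC and 49.9, 39.9 and 34.0 FPKM in NC_E2. The antiestrogen libraries held 50.4, 42.8 and 35.5 FPKM in ICI, 48.7, 39.1 and 30.1 FPKM in ICI_E2, 47.0, 42.3 and 33.0 FPKM in Tamo, and 44.1, 38.8 and 33.5 FPKM in Tamo_E2. The highest hairpin library, at 28.2 FPKM, was close under the lowest of the others, at 30.1 FPKM. Dusp6 had a log2 fold change of -1.06 ± 0.27 for SH against NC (edgeR adjusted p = 0.0157), -1.11 ± 0.27 for SH_E2 against NC_E2 (adjusted p = 0.0116) and -1.09 ± 0.19 over both (adjusted p = 0.000333). The gene occupies chromosome 10 from 99263231 to 99267489 on the plus strand.

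Dusp2 encodes a nuclear phosphatase found mainly in blood cells. It stood at 19.6, 17.6 and 15.1 FPKM in SH and at 22.1, 18.8 and 14.1 FPKM in SH_E2, against 23.5, 28 and 22.8 FPKM in NC and 26.3, 28 and 24.4 FPKM in NC_E2. The antiestrogen libraries held 27.0, 30.0 and 21.6 FPKM in ICI, 25.9, 31.2 and 18.7 FPKM in ICI_E2, 25.6, 25.5 and 24.9 FPKM in Tamo, and 29.5, 29.8 and 23.3 FPKM in Tamo_E2. Hairpin libraries did not overlap those of the NC arm, but the highest of them, at 22.1 FPKM, exceeded the lowest antiestrogen library, at 18.7 FPKM. The log2 fold change was -0.56 ± 0.18 for SH against NC, which missed the threshold in edgeR (adjusted p = 0.051), and -0.57 ± 0.18 for SH_E2 against NC_E2, which passed it narrowly (adjusted p = 0.0477). With the replicate number as a block, Dusp2 was called in SH against NC (-0.57, edgeR adjusted p = 0.00199), and SH was below NC in 3 of 3 same-numbered pairs. The call in SH_E2 against NC_E2 was lost under 12 of 17 alternatives, among them limma on log2(FPKM + 1) (adjusted p = 0.0704), no FPKM filter (0.0885), a filter of 5 FPKM (0.0584) and upper quartile scaling (0.0569), while DESeq2 called Dusp2 in both comparisons (adjusted p = 0.0214 without and 0.0211 with β-estradiol). Over both conditions it was -0.57 ± 0.12 (adjusted p = 0.00249). The gene is at chromosome 2, 127336159 to 127338376, plus strand.

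Spred1, whose protein recruits neurofibromin to Ras, stood at 15.1, 15.3 and 15.5 FPKM in SH and at 14.0, 12.4 and 14.3 FPKM in SH_E2, against 25.1, 20.4 and 18.9 FPKM in NC and 21.4, 17.8 and 17.6 FPKM in NC_E2. The antiestrogen libraries held 23, 21.3 and 19.8 FPKM in ICI, 22, 16.7 and 19.3 FPKM in ICI_E2, 22.9, 17.9 and 16.1 FPKM in Tamo, and 25.5, 20.5 and 21.5 FPKM in Tamo_E2. The hairpin libraries lay below all others, with a narrow gap between 15.5 and 16.1 FPKM. Spred1 had a log2 fold change of -0.55 ± 0.13 for SH against NC (edgeR adjusted p = 0.00907), -0.53 ± 0.13 for SH_E2 against NC_E2 (adjusted p = 0.0114) and -0.54 ± 0.09 over both (adjusted p = 0.000223). Spred1 spans chromosome 2 from 117121374 to 117182279 on the plus strand.

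Spred2, the close relative of Spred1, did not pass. It stood at 12.4, 11.4 and 9.79 FPKM in SH and at 11, 10.4 and 11 FPKM in SH_E2, against 11.3, 10.8 and 9.09 FPKM in NC and 10.6, 10.7 and 9.43 FPKM in NC_E2. The 12 antiestrogen libraries ran from 8.23 to 11.9 FPKM. Its log2 fold change over both conditions was 0.04 ± 0.08, with a 95% interval from -0.13 to 0.21 (edgeR adjusted p = 0.796), which does not reach the value of Spred1. The gene is on the plus strand of chromosome 11, from 19924375 to 20024026.

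Etv5 stood at 19.5, 34.0 and 27.5 FPKM in SH and at 20.0, 30.6 and 27.6 FPKM in SH_E2, against 24.4, 32.1 and 29.3 FPKM in NC and 25.5, 29.4 and 29.3 FPKM in NC_E2. The 12 antiestrogen libraries ran from 23 to 35.5 FPKM. The 2 hairpin libraries numbered 1 were the lowest of all 24, but the ranges of the groups overlapped, and the log2 fold change over both conditions was -0.15 ± 0.14, with a 95% interval from -0.44 to 0.15 (edgeR adjusted p = 0.524). Etv5 lies on the minus strand of chromosome 16, from 22381309 to 22439719.

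Spry1 was near the detection filter. It stood at 0.434, 1.11 and 0.989 FPKM in SH and at 0.381, 1.17 and 1.23 FPKM in SH_E2, against 0.879, 0.851 and 1.43 FPKM in NC and 0.873, 1.14 and 1.28 FPKM in NC_E2. The 12 antiestrogen libraries ran from 0.626 to 1.37 FPKM. The 2 hairpin libraries numbered 1 were the lowest of all 24, whereas those numbered 2 and 3 lay amid the other groups. The log2 fold change over both conditions was -0.33 ± 0.30, with a 95% interval from -0.96 to 0.30 (edgeR adjusted p = 0.508). The gene spans chromosome 3 from 37639947 to 37644598 on the plus strand.

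Both genes under the filter were low in every library. Dusp4, which encodes a nuclear phosphatase related to Dusp1, had 0, 57 and 46 estimated counts in SH and 18, 16 and 47 in SH_E2, against 95, 113 and 87 in NC and 143, 98 and 140 in NC_E2. Every hairpin library was below every NC-arm library, but the antiestrogen libraries, from 47 to 165 counts, overlapped the hairpin ones. In an edgeR fit on all 28735 genes with a count, which was added after the data were seen, the log2 fold change of Dusp4 over both conditions was -2 ± 0.50 (adjusted p = 0.0128), where 3.65% of genes were called lower. It was not called with β-estradiol absent (adjusted p = 0.356) or present (adjusted p = 0.0837). Dusp4 lies on the plus strand of chromosome 8 at 34807297 to 34819894. Spry2 had 0 to 14 counts per library, with 0 in all libraries of SH, Tamo and NC_E2, so no comparison is given. Its locus is on the minus strand of chromosome 14, from 105891947 to 105896819.

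In single comparisons, 4 of the 8 tested genes were called lower in SH than in NC, where 4.15% of all genes tested were called lower and 4.92% higher. With the replicate block, 5 were called lower in SH, where 2572 of all genes tested were called in either direction, against 1105 without the block. In SH_E2 against NC_E2, 5 were called lower, where 4.28% of all genes were lower and 5.3% higher. None of the 8 was called higher in either, and none with a positive log2 fold change had an unadjusted p under 0.05. In SH against NC, the count was 2 without NC replicate 1 and 3 without SH replicate 3: Dusp6 lost its call in both cases (edgeR adjusted p = 0.0788 and 0.087), and Spred1 in the first (adjusted p = 0.0646). In SH_E2 against NC_E2, the count was 2 without NC_E2 replicate 1, and 3 without SH_E2 replicate 2 or SH_E2 replicate 3. Dusp2 was lost in each of these and also without NC_E2 replicate 2 or 3, Dusp6 without NC_E2 replicate 1 (adjusted p = 0.0568) or SH_E2 replicate 3 (adjusted p = 0.0695), and Spred1 without NC_E2 replicate 1 (adjusted p = 0.0656) or SH_E2 replicate 2 (adjusted p = 0.054). With only the libraries of the contrast in the fit, Dusp6 was not called in SH against NC (adjusted p = 0.095) or SH_E2 against NC_E2 (0.0757), nor was Spred1 in SH against NC (0.0546). Over both conditions the same 5 genes were called whichever library was left out, and in these 5 the 6 hairpin libraries lay below the 6 NC-arm libraries, as in 5.01% of all genes tested. In 4 of the 8 tested genes, namely Dusp1, Dusp6, Spry4 and Spred1, all 6 hairpin libraries were below the 18 others, as were 2.91% of all genes tested.

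SH and SH_E2 had the 2 lowest means of the 8 groups for 8 of the 10 genes, the exceptions being Spry2 and Spred2. Of the 8 tested genes this held for 7, and of all genes tested for 19.0%. For Spry1 and Etv5 the next group was within the spread of replicates: Spry1 averaged 0.927 ± 0.474 FPKM in SH_E2 and 0.940 ± 0.312 FPKM in Tamo, and Etv5 averaged 27.0 ± 7.25 FPKM in SH and 27.3 ± 1.69 FPKM in ICI_E2 (SD, n = 3 each). For Dusp1, Dusp2, Dusp6 and Spry4, the step from the hairpin groups to the next group was the only step in the order of 8 means at which neighbouring groups shared no range. The share of all genes with such a step was not counted. For Dusp2 this step was narrow, from 22.1 FPKM in SH_E2 to 22.8 FPKM in NC. Its lowest ICI_E2 library, at 18.7 FPKM, lay within the range of the hairpin libraries. Dusp1 averaged 2.75 ± 1.29 FPKM in SH (SD, n = 3), and the next group above the hairpin arm was ICI_E2 with 9.80 ± 4.10 FPKM. For Spred1 the SH_E2 and SH libraries were also apart from each other, with maxima of 14.3 FPKM in SH_E2 and minima of 15.1 FPKM in SH. Summed over the 10 genes, the libraries held 98.2 ± 10.5 FPKM in SH and 95 ± 7.36 FPKM in SH_E2, against 147 ± 14.1 FPKM in NC and 146 ± 8.59 FPKM in NC_E2 (SD, n = 3 each). The sums were 151 ± 11.6 FPKM in ICI, 139 ± 15.0 FPKM in ICI_E2, 150 ± 14.0 FPKM in Tamo and 151 ± 5.69 FPKM in Tamo_E2.

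The hairpin cells were also set against the antiestrogen cells, which were not labelled as carrying a vector. In SH against the mean of ICI and Tamo, the same 5 genes were called lower, where 6.55% of all genes tested were called lower and 7.98% higher. The log2 fold change was -2.17 ± 0.40 for Dusp1 (edgeR adjusted p = 0.000851), -1.78 ± 0.11 for Spry4 (adjusted p = 1.76e-09) and -1.08 ± 0.24 for Dusp6 (adjusted p = 0.00458). It was -0.62 ± 0.16 for Dusp2 (adjusted p = 0.0101) and -0.45 ± 0.11 for Spred1 (adjusted p = 0.01). The call of Dusp2 was lost without SH replicate 3 (adjusted p = 0.0671) and with replicates 2 and 3 alone (0.077), and that of Spred1 with only the libraries of the contrast (0.0519). With the replicate block, 3461 of all genes tested were called in either direction, against 1770 without it, and the same 5 feedback inhibitors were called lower. This comparison shares the SH libraries with that against NC.

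**Figure D2:**
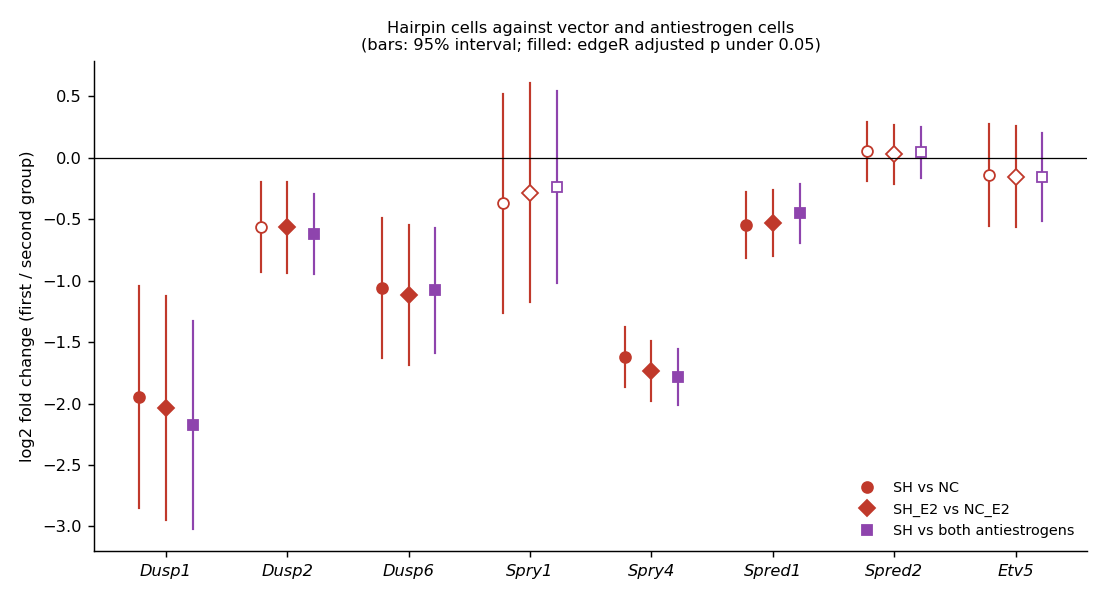
Log2 fold change (y axis) of the 8 tested genes in SH against NC, SH_E2 against NC_E2, and SH against the mean of ICI and Tamo, with 95% intervals from edgeR; filled symbols passed an adjusted p of 0.05. Dusp1, Dusp6, Spry4 and Spred1 are filled in all 3 comparisons, while Dusp2 is open in SH against NC.

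Stretches of 250 bases before the start site are printed for the 4 genes called over both conditions that have a promoter window in RefSeq (GRCm38.p6), so that the genes that were lower together can be compared. Dusp1 is from chr17:26508473-26508722, minus strand, Dusp2 from chr2:127335909-127336158, plus strand, Dusp6 from chr10:99262981-99263230, plus strand, and Spred1 from chr2:117120821-117121070, plus strand. Capitals mark TGACG on either strand, the core of the cAMP response element (CRE), the site of CREB family factors.
Dusp1: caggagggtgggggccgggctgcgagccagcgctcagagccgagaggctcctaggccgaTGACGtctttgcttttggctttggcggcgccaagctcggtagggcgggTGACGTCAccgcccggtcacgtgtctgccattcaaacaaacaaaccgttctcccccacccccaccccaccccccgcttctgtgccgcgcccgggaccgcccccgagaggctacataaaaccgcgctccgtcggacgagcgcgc
Dusp2: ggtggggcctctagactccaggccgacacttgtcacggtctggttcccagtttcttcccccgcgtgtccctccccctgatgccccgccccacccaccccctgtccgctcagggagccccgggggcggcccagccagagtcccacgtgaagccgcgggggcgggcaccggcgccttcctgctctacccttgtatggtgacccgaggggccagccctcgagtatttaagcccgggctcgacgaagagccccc
Dusp6: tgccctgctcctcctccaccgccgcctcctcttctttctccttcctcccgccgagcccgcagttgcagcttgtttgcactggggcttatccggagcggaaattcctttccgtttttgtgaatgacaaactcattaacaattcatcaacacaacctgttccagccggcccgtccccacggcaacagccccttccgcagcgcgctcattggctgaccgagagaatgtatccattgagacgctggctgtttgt
Spred1: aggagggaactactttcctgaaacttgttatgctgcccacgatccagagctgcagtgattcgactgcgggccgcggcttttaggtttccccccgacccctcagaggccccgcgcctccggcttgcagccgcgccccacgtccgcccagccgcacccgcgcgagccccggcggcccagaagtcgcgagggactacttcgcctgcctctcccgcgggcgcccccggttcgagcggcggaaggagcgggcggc

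Windows of 300 bases, reaching 50 past the start site, were searched on both strands for the ETS motif CCGGAAGT and its core CCGGAA, the CRE TGACGTCA and its core TGACG, the AP-1 motif TGANTCA, the EGR motif GCGTGGGCG, the E-box CACGTG and the CArG box. The CRE core lies within the full CRE, and the ETS core within the ETS motif. RefSeq windows were at hand for 8 of the 10 genes. The Dusp1 window held the full CRE 143 bases before the start site, as 1.79% of 32851 windows did, the CRE core a further time 191 bases before it, and an E-box 126 bases before it, which 7.15% of windows held. The Dusp2 window held a CRE core 6 bases past the start and an E-box 109 bases before it, and the CRE core was in 20.8% of all windows. The windows of Dusp6 and Spred1, whose RNA was lower in the hairpin arm, held none of these motifs, nor did those of Spry1 and Etv5. Spred2 had a CRE core and Spry2 an ETS core, which 14.9% of windows held. These matches are letters in a window and were not tested as sites.

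Neither antiestrogen nor β-estradiol shifted a feedback inhibitor past the threshold. In each of the 11 comparisons of antiestrogen with vector, of ICI with Tamo, and of β-estradiol within or across arms, 0 of the 8 tested genes were called by edgeR, and DESeq2 and limma also called 0. The background was as low: 0.00821% of all genes tested were called in ICI against NC and in Tamo against NC, 0.0575% for β-estradiol over the 4 arms, and 0% in the others. With the replicate block, 14 of all genes tested were called for β-estradiol over the 4 arms, against 7 without it, 3 for β-estradiol in Tamo and 1 in ICI, against 0 in each without it, and still 0 of the 8. Across these comparisons 1 of the genes reached an unadjusted p under 0.05: Spry4 in Tamo against NC, with 9.41, 11.2 and 8.96 FPKM in Tamo against 8.52, 8.52 and 7.81 FPKM in NC. These libraries did not overlap, and the log2 fold change was 0.26 ± 0.11 (edgeR unadjusted p = 0.0352, adjusted p = 1). Spry4 libraries also did not overlap in ICI against NC, where ICI was higher, and in ICI_E2 against NC_E2, where ICI_E2 was lower. The share of all genes without overlap in these comparisons was not counted. With the block, the log2 fold change of Dusp1 was 0.37 ± 0.13 in Tamo against NC and 0.34 ± 0.13 in Tamo_E2 against NC_E2. Dusp1 was higher with tamoxifen in every same-numbered pair of both comparisons. In ICI against Tamo its blocked value was -0.31 ± 0.13. Spred1 with the block had 0.25 ± 0.09 in Tamo_E2 against NC_E2, but -0.18 ± 0.09 in Tamo against NC. None of these values was called.

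ICI-182780, a pure antiestrogen that leads to loss of the receptor protein, gave log2 fold changes of the 8 genes from -0.11 to 0.09 against NC, and from -0.15 to 0.04 in the presence of β-estradiol. Tamoxifen, a selective receptor modulator, gave -0.17 to 0.36 against NC and -0.11 to 0.32 with β-estradiol. Both comparisons share the NC libraries. The value of Dusp1 was 0.09 for ICI (95% interval -0.78 to 0.96) and 0.36 for Tamo (95% interval -0.51 to 1.23), and its value for SH of -1.95 was outside both intervals. For Dusp6 the values were 0.05 for ICI (-0.51 to 0.62) and -0.01 for Tamo (-0.57 to 0.55), against -1.06 for SH. The difference between the 2 antiestrogens, ICI against Tamo, lay between -0.27 (Dusp1, 95% interval -1.14 to 0.60) and 0.16 (Spred1, 95% interval -0.11 to 0.43). Doses were not in the labels, so the compounds are not matched by dose.

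β-estradiol, averaged over the 4 arms, gave log2 fold changes from -0.09 (Spry4) to 0.12 (Spry1), and all 8 intervals lay between -0.46 and 0.56. Within arms, the smallest p was for Spred1 in tamoxifen-treated cells. Those cells held 25.5, 20.5 and 21.5 FPKM with β-estradiol and 22.9, 17.9 and 16.1 FPKM without, a log2 fold change of 0.24 ± 0.13 (edgeR unadjusted p = 0.074, adjusted p = 1). With the replicate block, the value of Spred1 in tamoxifen-treated cells was 0.25 ± 0.09 (edgeR unadjusted p = 0.0125, adjusted p = 0.423). In SH cells, Spred1 lay at 12.4 to 14.3 FPKM with β-estradiol and 15.1 to 15.5 FPKM without, a log2 fold change of -0.17 ± 0.13 without the block (edgeR unadjusted p = 0.204). The difference of the β-estradiol response in SH from that in NC ran from -0.12 (Spry4) to 0.09 (Spry1), with intervals between -1.33 and 1.35.

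**Figure D3:**
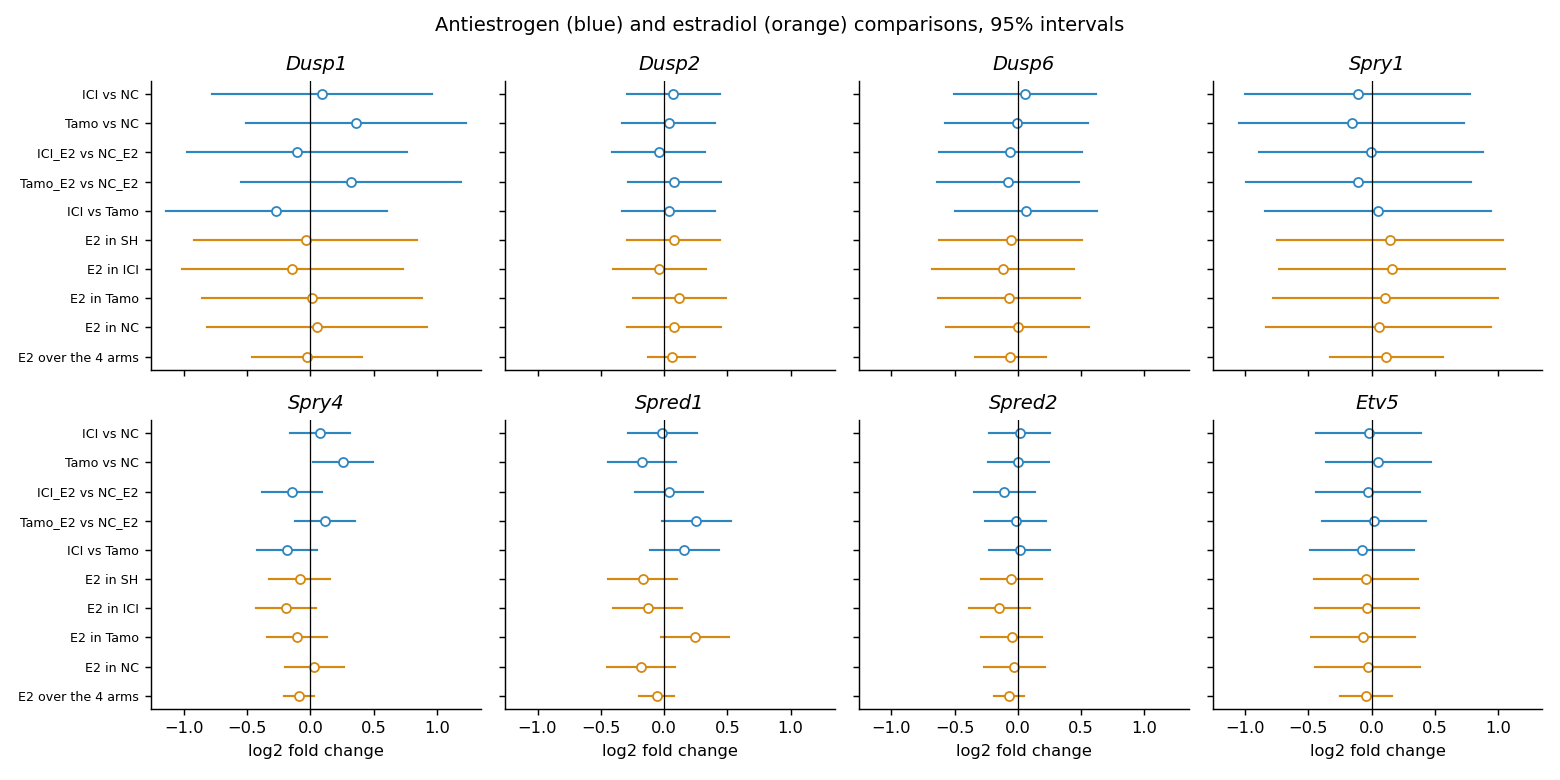
Log2 fold changes (x axis) with 95% intervals for the 8 tested genes in 5 antiestrogen comparisons (blue) and 5 β-estradiol comparisons (orange), which share libraries with each other. The intervals are from the fit without the replicate block. Of the 80 intervals, that of Spry4 in Tamo against NC is the only one that leaves out 0. With the block, some values of Dusp1 and Spred1 also had an edgeR unadjusted p under 0.05.

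For some of the genes, levels also followed the replicate number within groups, in an order that was not the same for all of them. For Dusp6, the library numbered 1 was the highest and that numbered 3 the lowest in 8 of 8 groups. Outside the SH arm its levels were 44.1 to 50.9 FPKM in number 1, 38.8 to 42.8 FPKM in number 2 and 30.1 to 35.5 FPKM in number 3. For Dusp1, number 2 was the highest and number 1 the lowest in 8 of 8 groups, with 6.41 to 9.52 FPKM in number 1, 13.9 to 17.3 FPKM in number 2 and 8.28 to 14.4 FPKM in number 3 outside the SH arm. Number 1 was also the lowest in 8 of 8 groups for Etv5 and in 7 of 8 for Spry1, while number 3 was the lowest in 8 of 8 for Dusp2. Spry4 had no such order, with number 1 the highest in 5 groups and number 2 in 3. Since each group holds 1 library of each number, the hairpin and vector means are balanced for it. Within the same number, SH was below NC and SH_E2 below NC_E2 in 6 of 6 pairs for Dusp1, Dusp2, Dusp6, Spry4 and Spred1, in 4 of 6 for Spry1 and Etv5, and in 1 of 6 for Spred2. For the genes with 6 of 6 the pairs add nothing, because all their hairpin libraries lay below all NC-arm libraries. With replicates 2 and 3 alone, the same 5 genes were called lower over both conditions. What the numbers stand for is not given in the labels.

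**Figure D4:**
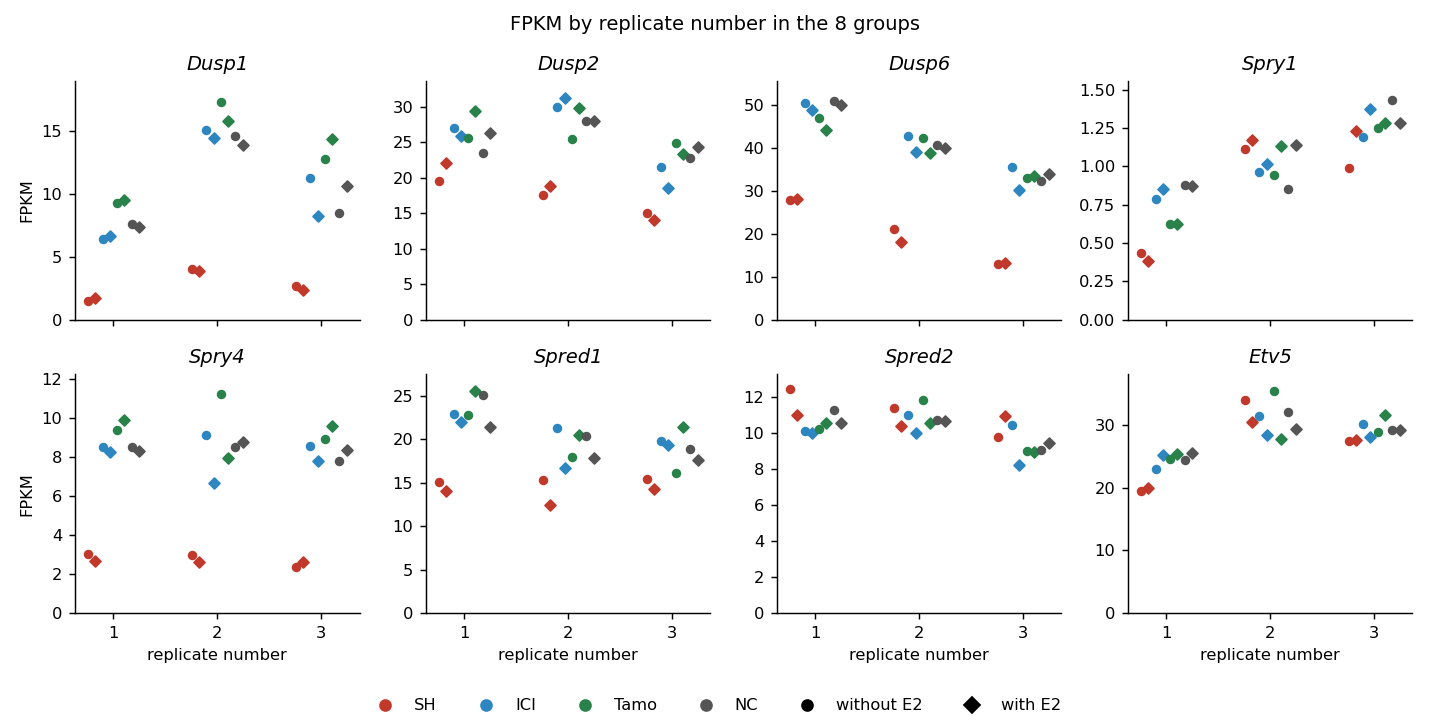
FPKM (y axis) by replicate number (x axis) for the 8 tested genes, with colours for the arms and diamonds for libraries with β-estradiol. At each number the red SH-arm points lie below the others for Dusp1, Dusp2, Dusp6, Spry4 and Spred1, while Dusp6 is highest at number 1 and Dusp1 at number 2.

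The wider pathway was read from 6 gene lists in the comparison of the SH arm with the NC arm over both β-estradiol conditions, where 10% of all genes tested were called lower and 10.6% higher. The lists were chosen with earlier results of these data known, so their shares and medians may partly reflect that choice. Of 7 tested relatives of the feedback inhibitors, 2 were lower and 0 higher, with a median log2 fold change of -0.25. Dusp5, a nuclear ERK phosphatase, had 3.49 to 7.73 FPKM in the SH arm and 12 to 22.9 FPKM in the NC arm, a log2 fold change of -1.74 ± 0.25 (edgeR adjusted p = 4.27e-05). Etv4, an ETS factor close to Etv5, had 16.4 to 22.9 FPKM in the SH arm and 28.7 to 35.4 FPKM in the NC arm, a log2 fold change of -0.72 ± 0.10 (edgeR adjusted p = 3.84e-05). The arms did not overlap for either gene.

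Genes known as transcriptional targets of ERK were mostly lower. Of 23 tested, 15 fell and 1 rose, with a median log2 fold change of -0.93. Because the list was chosen with earlier results of these data known, this share is a description and not a test. The zinc finger factor Egr1 had 2.69 to 14.4 FPKM in the SH arm and 36.5 to 65.8 FPKM in the NC arm, a log2 fold change of -2.59 ± 0.36 (edgeR adjusted p = 2.73e-05). Its relatives Egr3 (-2.62 ± 0.37) and Egr2 (-1.99 ± 0.43) fell as well. The AP-1 subunit gene Jun had 3.85 to 7.52 FPKM in the SH arm and 20.1 to 35.8 FPKM in the NC arm, a log2 fold change of -2.45 ± 0.20 (adjusted p = 4.84e-08). Klf2, a Krüppel-like factor gene, had 0.196 to 1.03 FPKM in the SH arm and 2.24 to 17.3 FPKM in the NC arm, and its log2 fold change of -4.21 ± 0.69 was the largest of the 23. Klf10, the gene of the list that rose (0.34 ± 0.12), is named after its value was seen. So are the genes of the list that were not called in either direction. These were Fos (-0.04 ± 0.47), Srf (-0.06 ± 0.09), Myc (-0.12 ± 0.11), Nr4a1 (-0.34 ± 0.24) and Atf3 (-1.05 ± 0.39). Nr4a2 (0.20 ± 0.60) and Mcl1 (0.15 ± 0.08) were also not called.

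Only the core relay was close to the background of 10% lower and 10.6% higher, with 20.0% of its genes called in either direction. The share called was 37.5% for receptors and adaptors, 41.2% for other inhibitors and 33.3% for the JNK and p38 branch, with calls both ways. Of 15 tested genes of the core relay 1 was lower and 2 higher, with a median of 0.03: Nras, which encodes a Ras protein, fell by 0.28 on the log2 scale (-0.28 ± 0.08, adjusted p = 0.012), while the ERK-activated kinase genes Mknk2 (0.55 ± 0.11) and Rps6ka3 (0.49 ± 0.13) rose. Of 16 tested receptors and adaptors 1 was lower and 5 higher, with a median of 0.02. The adaptor gene Lat2 (0.95 ± 0.11), the cytokine receptor chain gene Csf2rb2 (0.95 ± 0.12), the PDGF receptor gene Pdgfrb (0.81 ± 0.19) and the Ras exchange factor gene Rasgrp4 (0.66 ± 0.13) rose, and Sos1, another Ras exchange factor gene, fell (-0.33 ± 0.10). Plcg2 (0.24 ± 0.08), which also rose, is named after its value was seen. Kit had a log2 fold change of -0.16 ± 0.12 (edgeR adjusted p = 0.401). Of 17 tested inhibitors of other kinds 4 were lower and 3 higher, with a median of 0.05. Ier3 (-1.53 ± 0.26), the ubiquitin ligase gene Cblb (-0.87 ± 0.14) and the adaptor gene Sh2b3 (-0.80 ± 0.19) fell, whereas the adaptor gene Dok3 (0.81 ± 0.12) and the ErbB inhibitor gene Errfi1 (0.81 ± 0.15) rose. Dok2 (-0.74 ± 0.21), which fell, and Ptpn6 (0.47 ± 0.13), which rose, are named after their values were seen. Of 12 tested genes of the JNK and p38 branch 1 was lower and 3 higher, with a median of 0.04. Mapk11, a p38 kinase gene, fell (-1.35 ± 0.16), and the kinase genes Map2k4 (1.06 ± 0.10), Map3k7 (0.88 ± 0.24) and Mapkapk2 (0.37 ± 0.08) rose.

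**Figure D5:**
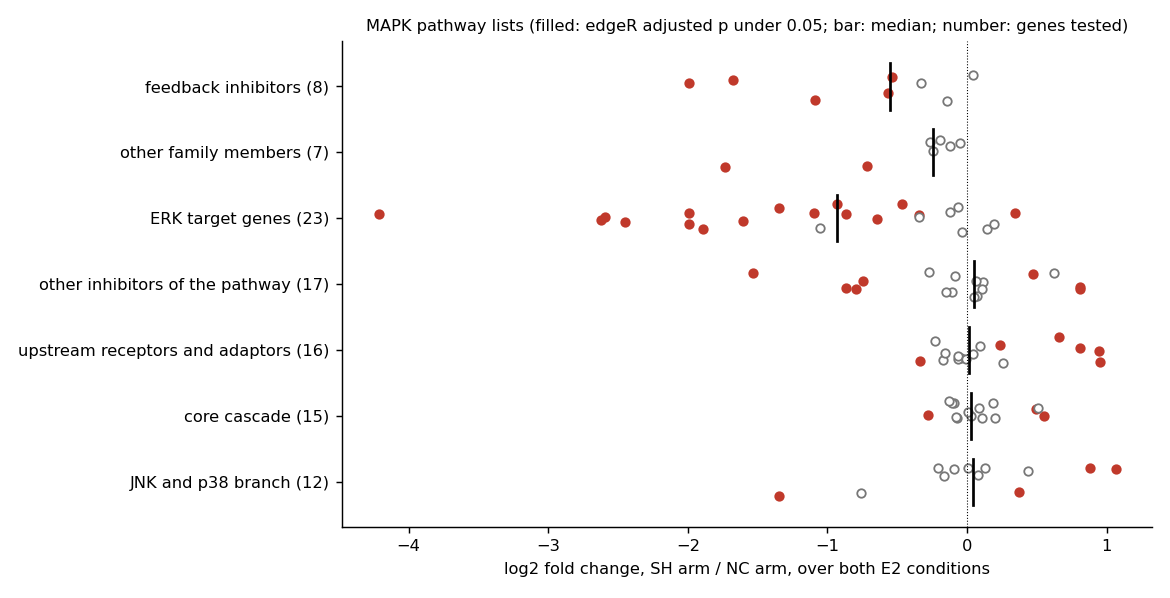
Log2 fold change of the SH arm against the NC arm over both β-estradiol conditions (x axis) for the tested genes of 7 lists (y axis, number tested in brackets), with filled points past an edgeR adjusted p of 0.05 and a bar at each median. The feedback inhibitors and the ERK target genes have medians of -0.55 and -0.93, and the medians of the 4 lists of kinases, receptors and other inhibitors lie between 0.02 and 0.05. The lists were chosen with earlier results of these data known.

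The protein-coding genes whose log2 levels were most like those of a feedback inhibitor were named by Pearson's r over the 24 libraries among 9642 genes. The libraries share the split into hairpin and other arms and the 3 replicate numbers, so these values describe a common pattern over libraries and are given without a test. For Dusp6 they were Cd69 (r = 0.974), a lymphocyte activation antigen gene, Egr1 (0.957) and Herpud2 (0.953). Cd69 averaged 4.50 FPKM in SH and 4.19 FPKM in SH_E2, against 12.1 FPKM in NC and 11.8 FPKM in NC_E2. For Dusp1 they were Maff (0.98), Slco4a1 (0.978) and Ndrg1 (0.977), and Maff averaged 3.02 FPKM in SH and 8 FPKM in NC. For Spry4 they were Cpvl (0.977), a carboxypeptidase gene, Prpf6 (0.974) and Rrp12 (0.972), and Cpvl averaged 10.4 FPKM in SH and 107 FPKM in NC. Spred1 was most like Nab1 (0.95), which encodes a binding partner of EGR factors, Tm9sf3 (0.943) and Vwa5a (0.931). Of the 3 tested genes that did not pass, Spry1 was most like Gcat (0.943), Ercc6l (0.932) and Pmpca (0.923), Spred2 most like Slc9a8 (0.886), Stk10 (0.856) and Trappc10 (0.85), and Etv5 most like Hk2 (0.956), Gatad2a (0.949) and Aacs (0.941), of which Hk2 averaged 22.9 FPKM in SH and 26.5 FPKM in NC.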

How the data were processed

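RNA of P815 cells was sequenced in 24 libraries, 8 groups of 3 by the labels. Per the submitters' processing notes, cutadapt, HISAT2 and GRCm38 were used, without versions. For the quantifier and the annotation a name is not given in the sources used here. Per the file headers, 1 table holds FPKM and counts per gene and library, as deposited. The deposited counts are whole numbers that are not normalized, but were treated as estimated counts (expected counts), because low values pile up: 16.2% of values from 1 to 40 are 4. An FPKM of 0.0001 stands for no signal. Totals were 42.1 to 68.8 M.

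Genes with 1 FPKM or more in at least 3 libraries (12183 of 28735 with a count) were scaled by TMM and fitted in edgeR 4.0.16 (R 4.3.3) with its quasi-likelihood F test, all 24 libraries sharing a model with a mean for each group. Tests were two-sided with Benjamini-Hochberg adjustment over all 12183 genes, and a gene was called at an adjusted p under 0.05. SE was taken from the log2 fold change and the F statistic, and its median was 0.21 in SH against NC. Adjusted p-values in the text are from these fits. Alternatives were DESeq2 1.42.0, limma 3.58.1 on log2(FPKM + 1) and log2(FPKM + 0.1), other scalings and filters, the libraries of a contrast alone, the replicate block and leaving out each library. Counts divided by 4, replicates 2 and 3 alone, the fit on all genes with a count for Dusp4 and Esr1, and the counts of genes whose libraries do not overlap were added after the data were seen. Whether replicate numbers pair the samples was checked by correlating the deviations of same-numbered libraries from their group means. The correlation was over 0.1 in every pair in 11 of 14 comparisons, with 0.164 to 0.337 for SH with NC, and the numbers were taken as pairing there, which comes from the data and not from the labels. The script was tested on simulated data. The 10 genes and the pathway lists were chosen with earlier results of these data known. From each list, up to 5 called genes with the largest absolute log2 fold change are named, with Kit and Esr1; names outside this rule are marked in the text. Likeness was Pearson's r, and the 3 protein-coding genes with the highest r are named. The likeness result of Dusp2 is not reported here. Gene positions are those of the deposited table. Promoter windows came from RefSeq on GRCm38.p6.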

Additional observations from a re-analysis of the deposited data

Results flagged for a closer look

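Dusp4, a feedback inhibitor under the FPKM filter, was lower with β-estradiol in ICI-182780 cells and higher with it in vector cells, with no overlap of libraries in either. It stood at 0.352, 0.562 and 0.240 FPKM in ICI_E2 and 0.591, 0.790 and 0.998 FPKM in ICI, a difference of means of -0.408 FPKM. In NC_E2 it stood at 0.805, 0.711 and 0.776 FPKM and in NC at 0.581, 0.628 and 0.443 FPKM, a difference of 0.213 FPKM. In the edgeR fit on all genes with a count, the log2 difference of the 2 responses (ICI minus NC) was -1.49 ± 0.96 (unadjusted p = 0.134, adjusted p = 1), so it did not pass, and counts were at most 165 per library. Among the feedback inhibitors, libraries with β-estradiol also lay apart, and lower, for Spry4 and Spred2 in ICI cells and for Spred1 in SH cells. The share of all genes with such gaps was not counted.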

How the results depend on the processing

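Over both β-estradiol conditions, Dusp1, Dusp2, Dusp6, Spry4 and Spred1 stayed called under every alternative, and the count of the 10 genes called was 5, or 6 with no FPKM filter, when Dusp4 entered. Against both antiestrogens the count was 4 to 5. In SH against NC the count was 2 with only the libraries of the contrast, 5 with DESeq2, RLE size factors, counts divided by 4 and the replicate block, which added Dusp2, and 2 to 4 when each library was left out. In SH_E2 against NC_E2 it was 3 with only the libraries of the contrast, 2 to 5 when each library was left out, and 4, without Dusp2, with both limma fits, no FPKM filter, the filter of 5 FPKM, upper quartile scaling and replicates 2 and 3 alone. The counts of 0 in the 11 antiestrogen and β-estradiol comparisons stayed 0. Of 667 alternatives over 35 values of single genes, 626 kept direction and side of the threshold, 26 lost the call, 4 gained it and 11 turned direction. The causes were not tested, beyond the smaller number of libraries that the alternatives which leave libraries out have by construction.

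The 11 that turned direction were all uncalled, and 10 of them came with a library left out, which moved the values over these ranges. Spred2 ranged from -0.030 to 0.13 in SH against NC, from -0.020 to 0.056 in SH_E2 against NC_E2, from -0.0019 to 0.079 over both conditions and from -0.037 to 0.11 against both antiestrogens, where it was -0.052 in replicates 2 and 3 alone. Etv5 ranged from -0.35 to 0.053 in SH against NC, from -0.30 to 0.020 in SH_E2 against NC_E2 and, against both antiestrogens, from -0.37 to 0.029. Spry1 ranged from -0.53 to 0.096 in SH_E2 against NC_E2 and from -0.50 to 0.069 against both antiestrogens. Dusp4 over both conditions lost its call with only the libraries of the contrast (-2, adjusted p = 0.0674). Esr1 stayed uncalled, at -0.62 to -0.09.

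Libraries with the same replicate number deviated from their group means with correlations of -0.0225 to 0.472 over 28 pairs per number. For 23 of 24 libraries, the mean correlation with other groups' libraries of their own number exceeded that with either other number. In SH_E2 with NC_E2, and so over both conditions, 1 pair was under 0.1 (0.0967), as was 1 in ICI_E2 with NC_E2 (0.0949), so the numbers were not shown to pair those samples. With the replicate block, 5 of the genes were called in SH against NC, with Dusp2 added (-0.57, adjusted p = 0.00199), 5 in SH_E2 against NC_E2, 5 over both, 5 against both antiestrogens and 0 in each other comparison. Of all 12183 genes tested, 2667 were called in either direction in SH_E2 against NC_E2 with the block, against 1168 without it. Over both conditions 4293 were called with the block, against 2517 without it, so the background was higher in the blocked fit. No other call of the 8 genes changed with the block.

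Depth limits Spry2, with at most 14 counts per library, and Dusp4, with at most 165. In SH against NC the SE of Dusp1 was 0.43, and 0.14 with the replicate block, and that of Spry1 was 0.43, and 0.25 with the block.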
